A study of Mus musculus with 2 samples.

Results

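The 33 genes described here encode the enzymes and regulators of fatty acid, glycerophospholipid and cholesterol synthesis. They were taken by name from the 32285 gene rows of both libraries. Nuclei of fetal lung at gestation day 18 were profiled for RNA and accessible chromatin at once. There was 1 library of 9 pooled fetuses of a PBS-treated dam and 1 library of 8 pooled fetuses of a dam treated with ovalbumin (OVA), so every difference between OVA and PBS compares 2 libraries and not 2 treatments. All mice were Wild type C57BL/6J, and the mothers were 6 to 8 weeks old when sensitized. Both dams received alum (25 µL) intraperitoneally on days -21 and -7, in the OVA group together with 100 µg OVA, and were then bred to untreated males. From gestation day 4 to day 17 they received PBS or 500 µg OVA intranasally. By the study's methods, nuclei of fetal lung came from a mixture of 3 sorts, for group 2 innate lymphoid cells (ILC2s; CD45+ Lin- ST2+), for immune cells (CD45+) and for epithelium (EpCAM+), so the number of nuclei of a type does not reflect its share of the lung.

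The libraries held 8019 (PBS) and 5960 (OVA) barcodes with 11473351 and 13774959 unique molecular identifiers (UMIs) of genes, of which mitochondrial genes took 45.2% and 29.2%. After filtering, 4267 and 4981 nuclei remained, and 78.0% and 82.8% of them carried the markers of a cell type by a fixed marker gate. A name such as AT2-like stands for the nuclei that passed that gate. The 9 types with at least 50 nuclei per library were alveolar type 2 (AT2)-like with 408 PBS and 296 OVA nuclei, alveolar type 1 (AT1)-like (285 and 321), Macrophage-like (388 and 725), Monocyte-like (227 and 348), ILC2-like (358 and 482), Mast cell or basophil-like (60 and 111), Fibroblast-like (952 and 1046), Myofibroblast or smooth muscle-like (379 and 402) and Pericyte-like (136 and 148). The study's methods name no stromal sort for fetal lung, while its results text lists fibroblasts among the cells sorted at both ages, and the Fibroblast-like nuclei were the most numerous in both libraries. Of the defining markers only Il5 in PBS ILC2-like nuclei and Fcer1a in Mast cell or basophil-like nuclei were at 0, and the summed level of the Monocyte markers was higher in Fibroblast-like than in Monocyte-like nuclei. When clustered, 295 of the Monocyte-like nuclei lay in Macrophage clusters, 228 in a cluster led by the neutrophil granule genes Camp, Ngp and Ltf, and 47 in Fibroblast clusters, so Monocyte-like names a gate and not a single cell type. The libraries shared 54 barcodes, 28 of them among the kept nuclei.

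Cells build fatty acids from citrate. Acly cuts citrate to acetyl-CoA, Acaca and Acacb turn it into malonyl-CoA, Fasn joins the units to palmitate, and Me1 provides NADPH. Scd1 and Scd2 then place a double bond, and the Elovl enzymes lengthen the chain. Gpam and Agpat2 carry acyl chains into glycerophospholipids, and Pcyt1a and Chpt1 act in making phosphatidylcholine. Cholesterol is made from acetyl-CoA through mevalonate, by the enzymes from Hmgcs1 to Dhcr7. Both routes are driven by the sterol regulatory element-binding proteins (SREBPs), encoded by Srebf1 and Srebf2, which Scap escorts to the Golgi and the Insig proteins hold back in the endoplasmic reticulum. In the fetal lung before birth AT2 cells are known to make surfactant, a secretion rich in disaturated phosphatidylcholine.

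Promoter sequences of 27 of the 33 genes were found in RefSeq (GRCm38.p6; 250 bases before and 50 bases after a start). Scd1, Scd2, Fads1, Fdps, Fdft1 and Sqle had no matching entry. They were searched on both strands for a sterol regulatory element (TCACNCCAC, with N any base), the E-box CACGTG, the CCAAT box and the GC box GGGCGG, which are letters known to be bound by SREBPs, by basic helix-loop-helix factors, by NF-Y and by Sp1. The sterol regulatory element was in the promoters of Hmgcs1 and Pcyt1a, 2 of 27, against 1.22% of all 20242 promoters of that length. The E-box was in 4 (Elovl5, Insig1, Sc5d and Scap) against 7.75% of all promoters, the CCAAT box in 16 against 38.3%, and the GC box in 21 against 43.2%. A match of letters is a description and not a bound site, and the counts were not tested. Shown are the promoters with a sterol regulatory element, those of Fasn and Insig1 as a synthase and a regulator that were higher in AT2-like nuclei, and that of Elovl6, which was lower there and held none of the 4 motifs. The sequence searched for Acaca, a gene that was higher in AT2-like nuclei, also held none of the 4 motifs. It lay at the last of annotated starts that spread over 22317 bp. Other starts of a gene were not searched, for Acaca or for the rest of the 27. Capitals mark the sterol regulatory element in Hmgcs1 (chr13:119690101-119690400, plus strand, beginning 137 bases before the start) and in Pcyt1a (chr16:32430671-32430970, plus strand, 116 bases before the start). They mark 3 CCAAT boxes in Fasn (chr11:120824498-120824797, minus strand, the first beginning 90 bases before the start and the other two, which overlap, from 62 bases before it), and the E-box in Insig1 (chr5:28071162-28071461, plus strand, 101 bases before the start). The Elovl6 promoter was chr3:129532136-129532435, plus strand.
Hmgcs1: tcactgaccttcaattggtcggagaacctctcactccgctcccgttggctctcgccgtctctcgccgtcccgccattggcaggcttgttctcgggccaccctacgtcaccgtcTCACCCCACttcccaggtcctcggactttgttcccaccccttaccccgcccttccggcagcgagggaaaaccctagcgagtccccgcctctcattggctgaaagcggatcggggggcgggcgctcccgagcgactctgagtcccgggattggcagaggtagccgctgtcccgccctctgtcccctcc
Pcyt1a: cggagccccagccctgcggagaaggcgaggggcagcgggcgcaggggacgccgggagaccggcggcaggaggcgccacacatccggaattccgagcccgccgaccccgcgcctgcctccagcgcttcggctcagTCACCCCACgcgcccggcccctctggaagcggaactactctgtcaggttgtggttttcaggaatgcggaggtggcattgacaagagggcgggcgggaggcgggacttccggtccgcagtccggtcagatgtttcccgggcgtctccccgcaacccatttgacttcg
Fasn: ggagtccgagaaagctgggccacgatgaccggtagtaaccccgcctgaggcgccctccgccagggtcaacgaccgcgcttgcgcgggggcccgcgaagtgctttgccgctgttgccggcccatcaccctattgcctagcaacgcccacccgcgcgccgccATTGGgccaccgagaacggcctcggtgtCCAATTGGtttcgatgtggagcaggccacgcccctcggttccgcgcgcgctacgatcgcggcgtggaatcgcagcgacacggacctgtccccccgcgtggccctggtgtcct
Insig1: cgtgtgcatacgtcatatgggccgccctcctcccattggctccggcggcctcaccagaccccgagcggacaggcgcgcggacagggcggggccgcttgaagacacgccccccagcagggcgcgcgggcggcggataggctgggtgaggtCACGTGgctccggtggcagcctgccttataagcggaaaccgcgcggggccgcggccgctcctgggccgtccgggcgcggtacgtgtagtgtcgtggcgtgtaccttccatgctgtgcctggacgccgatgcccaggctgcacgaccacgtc
Elovl6: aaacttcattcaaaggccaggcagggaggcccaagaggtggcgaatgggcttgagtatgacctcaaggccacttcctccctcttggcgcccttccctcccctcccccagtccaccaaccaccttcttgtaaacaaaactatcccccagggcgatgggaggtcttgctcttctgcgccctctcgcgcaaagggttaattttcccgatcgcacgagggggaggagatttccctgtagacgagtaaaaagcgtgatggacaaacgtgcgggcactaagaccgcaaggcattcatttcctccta

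Most of the synthesis genes were higher in AT2-like nuclei than in the rest. Levels are the UMIs of a gene per 1e+06 UMIs of all nuclear-genome genes (CPM), after adding up the nuclei of 1 type in 1 library, and all intervals given are 95% intervals that cover counting error only. Each type was tested against all other gated nuclei over both libraries with edgeR's quasi-likelihood test, library as a block and Benjamini-Hochberg adjustment over 11817 genes, and a gene was called where the adjusted p was under 0.05 and the fold at least 2. Of the 33 genes 32 reached the minimum of 50 UMIs over the 4 sums of that test, and Acacb, the second acetyl-CoA carboxylase, did not. In AT2-like nuclei 23 of the 32 were higher and 2 lower, while 10.3% of all genes tested were higher and 17.4% lower. The median log2 ratio of the 32 genes to the rest was 1.39, beside -0.04 for all genes. The libraries are the only replicates, and they differ in treatment. With library as a block 1 residual degree of freedom is left, and the spread used is wholly or mostly shared across genes. These p-values therefore measure neither the spread between animals nor, in full, a gene's own disagreement between the 2 libraries. The ratio within each library is given beside them for some genes. The scaling of the test placed the median of all genes 0.16 higher on the log2 scale than plain CPM in AT2-like, 0.24 in Fibroblast-like and 0.19 in ILC2-like nuclei. Of the 33 genes 13 overlap a gene on the other strand and 0 one on the same strand, and whether the counting used strand is not given in the sources used here. Acaca, Me1, Elovl1, Elovl6, Gpam, Agpat2, Chpt1, Pcyt1a, Srebf1, Hmgcs1, Fdft1, Lss and Cyp51 are these genes, and their values are uncertain to that extent.

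**Figure D1:**
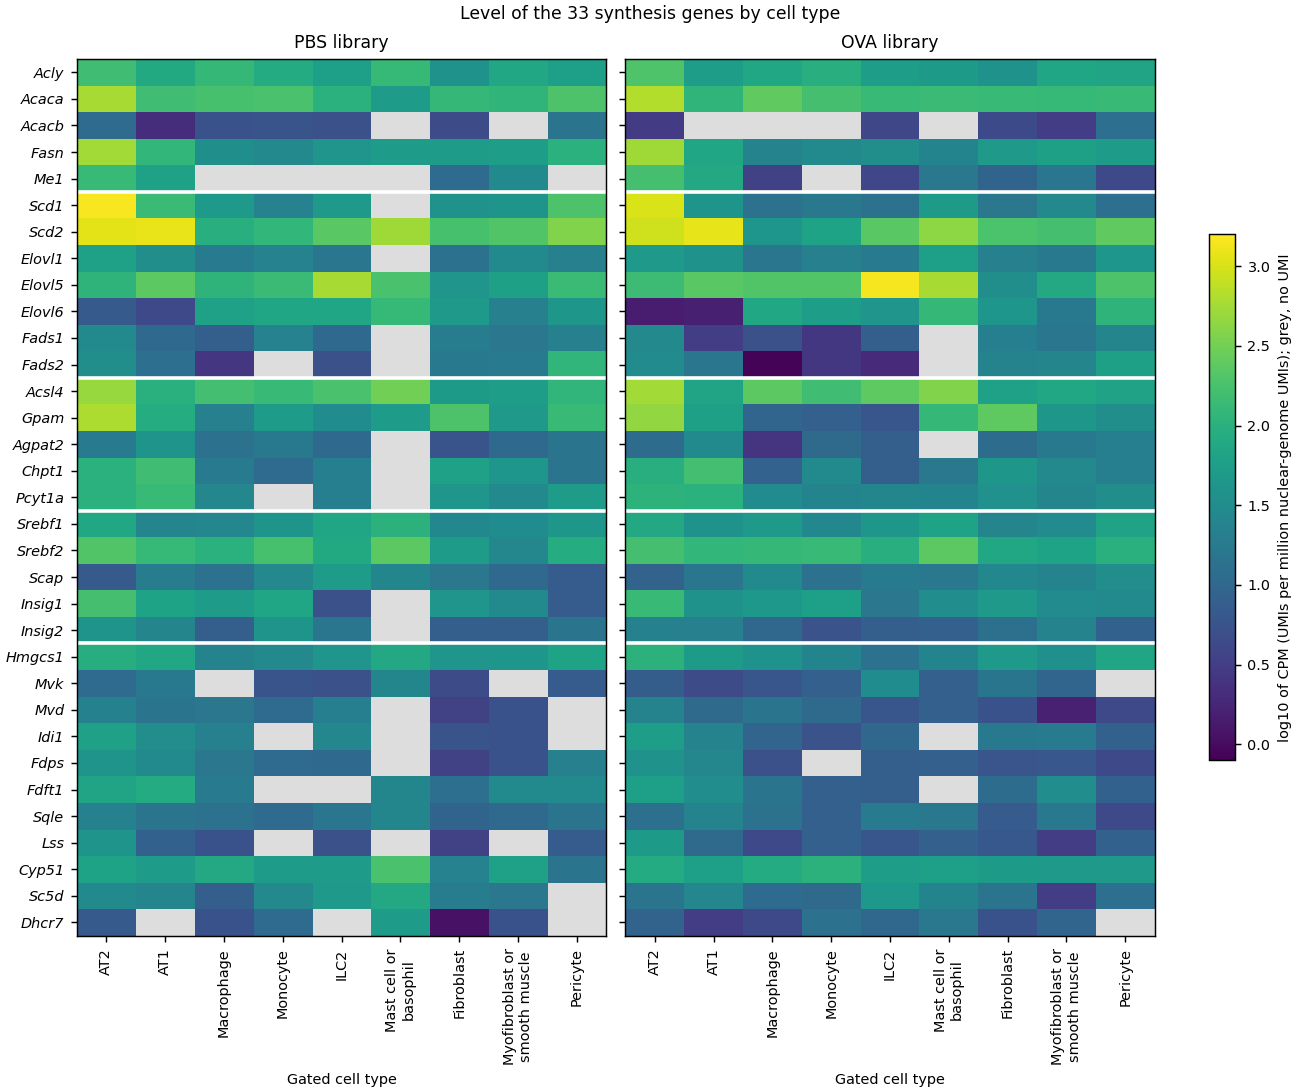
Levels of the 33 genes (rows, in groups by role) in 9 cell types (columns) of the PBS (left) and OVA (right) library, as log10 of CPM by colour, with grey for no UMI. The AT2 column is the brightest for Acaca, Fasn, Scd1 and Gpam in both libraries, while the brightest field of Elovl5 is ILC2.

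The enzymes of carbon supply and chain synthesis were all higher in AT2-like nuclei, 4 of 4 tested, with a median log2 ratio of 2.70. Fasn (chr11:120805846-120824547, minus strand, GRCm38) stood at 551 CPM (484 to 625, Poisson interval) in PBS AT2-like nuclei and 544 CPM (489.5 to 602) in OVA AT2-like nuclei. In the remaining nuclei its level was 62.9 and 45.7 CPM, and the fitted difference was 11.7-fold (adjusted p = 4.41e-61). In both libraries the AT2-like level was beyond counting error above the next type, AT1-like with 121 and 69.1 CPM. Me1, the malic enzyme that makes NADPH, reached 133 CPM (PBS) and 166 CPM (OVA) and was 8.90-fold higher. Acaca, which makes malonyl-CoA, was 4.74-fold higher with 589.5 and 664 CPM, and Acly 3.22-fold higher with 153 and 197 CPM. Acacb had 18 (PBS) and 20 (OVA) UMIs over all gated nuclei, too few to place it.

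Among the desaturases and elongases 5 of 7 genes were higher and 1 was lower. Scd1 (chr19:44394455-44407879, minus strand), the stearoyl-CoA desaturase, had the largest ratio of the 32 genes. It stood at 1476 CPM in PBS and 1033 CPM in OVA AT2-like nuclei, against 70.4 and 20.4 CPM in the rest, and was 36.6-fold higher (adjusted p = 1.09e-122). The ratio itself differed between the libraries, with log2 4.39 (4.16 to 4.63) in PBS and 5.66 (5.38 to 5.95) in OVA, and the level outside AT2-like nuclei was lower in OVA. Scd2 (chr19:44293674-44306864, plus strand), its neighbour on the chromosome, was 3.77-fold higher, Elovl1 2.76-fold, and the polyunsaturated fatty acid desaturases Fads1 and Fads2 2.41-fold and 2.19-fold. Elovl6 (chr3:129532355-129638495, plus strand), which lengthens palmitate to stearate, went the other way. It had 3 UMIs (6.75 CPM) in PBS and 1 UMI (1.47 CPM) in OVA AT2-like nuclei, against 40.3 and 47.5 CPM in the rest, log2 ratios of -2.58 (-4.88 to -0.99) and -5.01 (-10.32 to -2.52), and was called lower (adjusted p = 3.54e-09). Elovl5 was not called, with log2 ratios of -0.32 (-0.78 to 0.11) and -0.71 (-1.02 to -0.41).

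Of the genes of acyl activation and glycerophospholipid synthesis 4 of 5 were higher in AT2-like nuclei. Gpam, the mitochondrial acyltransferase that starts glycerolipid synthesis, stood at 623 CPM (PBS) and 461 CPM (OVA) and was 6.08-fold higher. Acsl4, which activates arachidonate and related fatty acids, stood at 493 and 559.8 CPM and was 5.25-fold higher. The enzymes of the phosphatidylcholine branch were higher by less. Pcyt1a, the rate-limiting enzyme of that branch, was 2.63-fold higher with 101 and 109 CPM, and Chpt1, the cholinephosphotransferase, 2.14-fold with 101 and 95.7 CPM. Agpat2 was not called, with 8 UMIs in each library.

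Of the SREBP regulators 4 of 5 were higher and Scap was lower. Insig1, which retains the SREBP complex and is itself an SREBP target, stood at 167 CPM (PBS) and 133 CPM (OVA) and was 4.05-fold higher. Srebf1 stood at 74.3 and 78.1 CPM against 33.6 and 35.8 CPM in the rest, 2.50-fold higher (adjusted p = 4.67e-06), and Srebf2 at 200.3 and 168 CPM against 84.9 and 96.6 CPM, 2.29-fold higher (adjusted p = 2.23e-07). Against the mean of the other types, each type weighing alike, neither Srebf1 nor Srebf2 passed. Insig2 was 2.24-fold higher. Scap rested on 3 and 6 UMIs in AT2-like nuclei, 6.75 and 8.84 CPM against 18.0 and 23.2 CPM, and passed narrowly (log2 -1.21, adjusted p = 0.0496).

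In the mevalonate and sterol route 6 of 11 genes were higher and 0 lower by edgeR, 0 also at an unadjusted p under 0.05. Lss, which closes the sterol rings, had the largest ratio of these 11, with 40.5 CPM (PBS) and 50.1 CPM (OVA) against 4.60 and 6.59 CPM in the rest, 9.04-fold. Idi1 and Fdps, which make the isoprenoid units, were 4.57-fold and 4.38-fold higher, Fdft1, the squalene synthase, 3.24-fold, Mvd 3.19-fold and Hmgcs1, the synthase at the head of the route, 2.62-fold. Among these 11 genes, those of the steps after squalene other than Lss did not pass. Sqle, Cyp51, Sc5d and Dhcr7 had fitted log2 ratios of 0.53, 0.68, 0.40 and 0.83, and Mvk one of 0.19. Msmo1, a later step outside the 11, was called higher and is given with the further sterol genes. Cyp51 had an adjusted p of 0.0211 by edgeR but a ratio under 2-fold, and Dhcr7 had 3 and 6 UMIs in AT2-like nuclei. As summed levels the route stood at 457 CPM (396 to 524) and 461 CPM (411 to 515) in AT2-like nuclei and at 206 and 201 CPM in the rest.

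**Figure D2:**
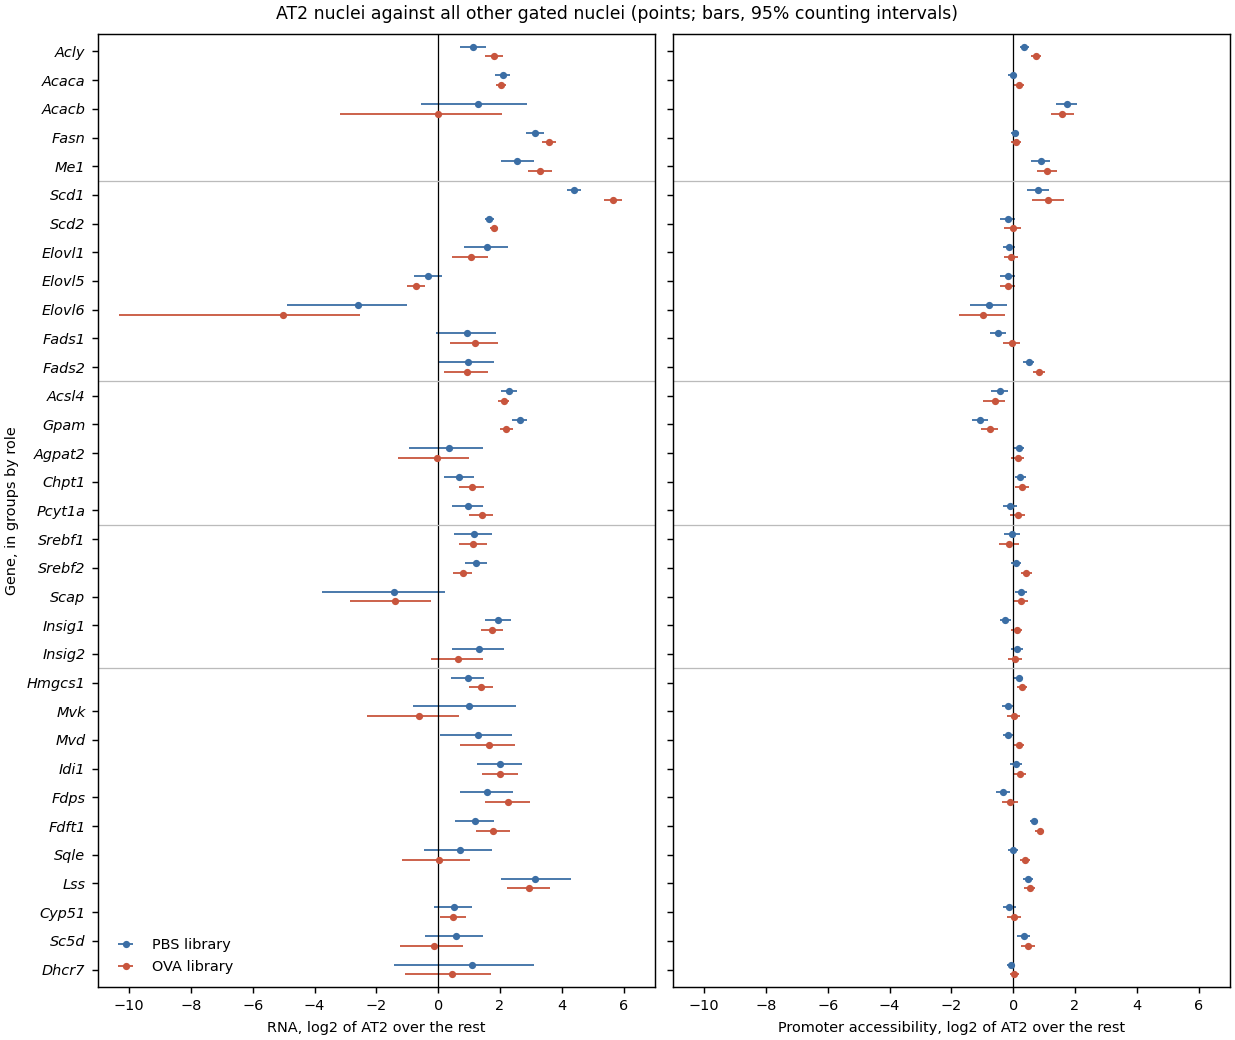
For each gene, log2 of AT2 nuclei over all other gated nuclei in RNA (left) and in promoter accessibility (right) in the PBS (blue) and OVA (red) library, with 95% counting intervals. RNA ratios reach 5.66 for Scd1 in the OVA library, Elovl6 lies left of 0 in both panels, and most promoter ratios lie near 0.

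The order of types was less steep for many of the genes than these ratios against the rest. AT2-like nuclei had the highest level of the 9 types in both libraries for 14 of the 33 genes, and for 7 of those (Acaca, Fasn, Me1, Scd1, Gpam, Insig1 and Lss) the distance to the next type was beyond counting error in both. For Acly the distance was beyond counting error in OVA, with Monocyte-like nuclei next, and within it in PBS. Srebf2 had its highest level in the mast cell or basophil-like group of both libraries (233 and 230.5 CPM), from 9 and 28 UMIs, not beyond counting error from its AT2-like level (log2 0.22, -0.96 to 1.21, and 0.46, -0.19 to 1.06). Fads2 was highest in Pericyte-like nuclei, Elovl5 in ILC2-like nuclei and Scd2 in AT1-like nuclei.

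**Figure D3:**
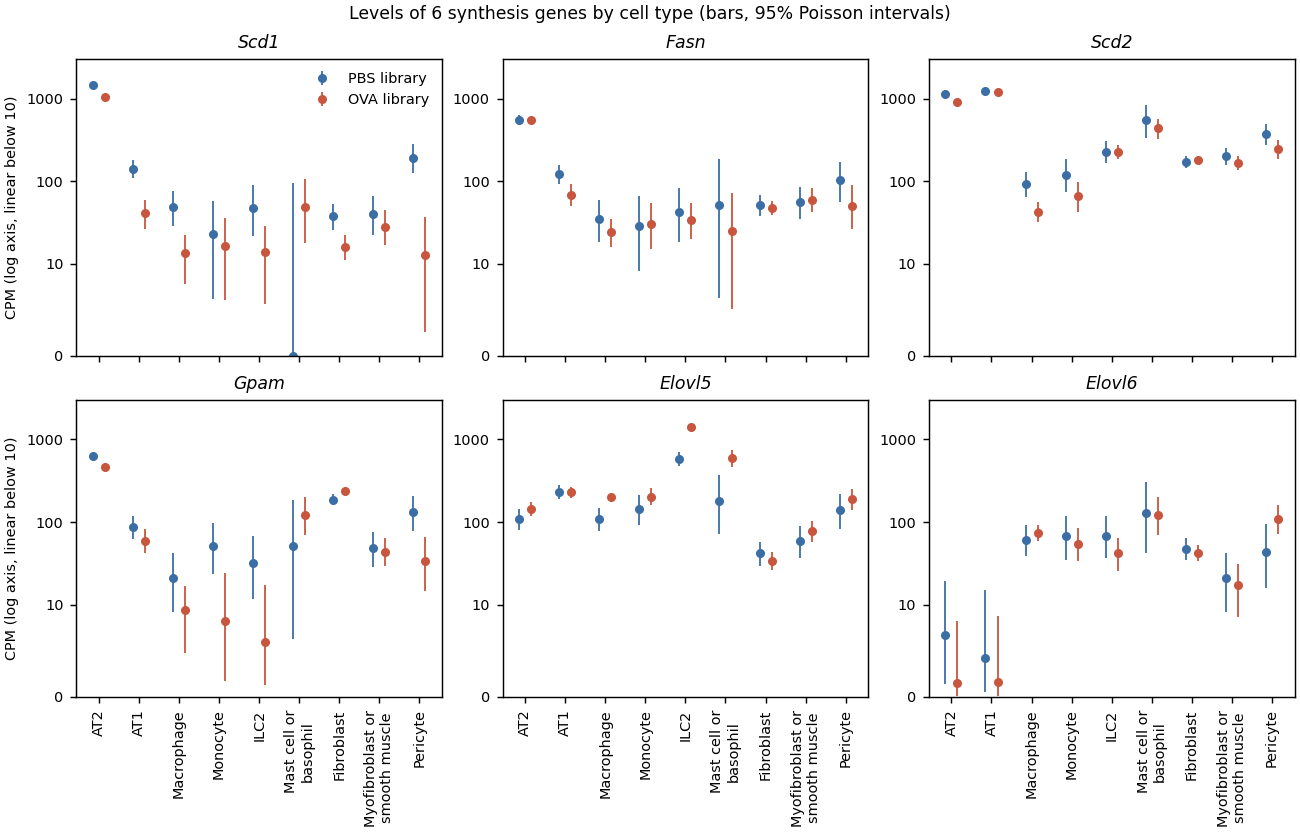
CPM (log axis, linear below 10) of 6 genes in 9 cell types of the PBS (blue) and OVA (red) library, with 95% Poisson intervals. Scd1, Fasn and Gpam are highest in AT2, Scd2 is near 1000 CPM in AT2 and AT1, Elovl5 reaches 1421 CPM in OVA ILC2, and Elovl6 is lowest in AT2 and AT1.

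The genes with the most UMIs and both Srebf genes were followed through every type, with the PBS level first and the OVA level second. Acaca stood at 155 and 115 CPM in AT1-like, 171 and 250.1 in Macrophage-like, 177 and 171 in Monocyte-like, 100.5 and 134 in ILC2-like, 51.8 and 140.0 in Mast cell or basophil-like, 125 and 139 in Fibroblast-like, 115 and 131 in Myofibroblast or smooth muscle-like and 190.3 and 136 in Pericyte-like nuclei. AT2-like nuclei alone were above 500 CPM, and the AT1-like and PBS Mast cell or basophil-like levels lay within the range that AT2 markers reached there. Acsl4 stood at 99.7 and 67.6 CPM in AT1-like, 163 and 235 in Macrophage-like, 131 and 154 in Monocyte-like, 179.8 and 240.1 in ILC2-like, 311 and 379 in Mast cell or basophil-like, 49.2 and 61.6 in Fibroblast-like, 56.3 and 74.0 in Myofibroblast or smooth muscle-like and 117 and 63.6 in Pericyte-like nuclei. The 4 immune types all had more Acsl4 than the AT1-like and the stromal types of the same library. Gpam stood at 87.0 and 59.7 CPM in AT1-like, 21.4 and 9.46 in Macrophage-like, 51.4 and 8.26 in Monocyte-like, 31.7 and 6.00 in ILC2-like, 51.8 and 123 in Mast cell or basophil-like, 188 and 238 in Fibroblast-like, 48.2 and 44.1 in Myofibroblast or smooth muscle-like and 132 and 33.9 in Pericyte-like nuclei.

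Scd1 outside the alveolar epithelium was between 0 and 190.3 CPM. It stood at 48.2 and 13.8 CPM in Macrophage-like, 22.8 and 16.5 in Monocyte-like, 47.6 and 14.0 in ILC2-like, 0 and 49.4 in Mast cell or basophil-like, 37.8 and 16.1 in Fibroblast-like, 40.2 and 28.3 in Myofibroblast or smooth muscle-like and 190.3 and 12.7 in Pericyte-like nuclei. The 0 in PBS Mast cell or basophil-like nuclei allows up to 77.7 CPM at 3 counts. Scd2 stood at 93.7 and 43.0 CPM in Macrophage-like, at 119.9 and 66.1 in Monocyte-like, 227 and 228 in ILC2-like, 544 and 436 in Mast cell or basophil-like, 173 and 181.8 in Fibroblast-like, 201 and 169 in Myofibroblast or smooth muscle-like and 373 and 246 in Pericyte-like nuclei. Thus Scd2 was lowest in Macrophage-like and next lowest in Monocyte-like nuclei of both libraries. Elovl5 stood at 110.3 and 146 CPM in AT2-like, 233 and 229 in AT1-like, 109.8 and 200.3 in Macrophage-like, 143 and 204 in Monocyte-like, 181 and 593 in Mast cell or basophil-like, 42.4 and 34.2 in Fibroblast-like, 59.0 and 78.7 in Myofibroblast or smooth muscle-like and 139 and 191 in Pericyte-like nuclei.

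Srebf1 stood at 25.5 and 39.3 CPM in AT1-like, 26.8 and 46.4 in Macrophage-like, 40.0 and 27.5 in Monocyte-like, 68.7 and 44.0 in ILC2-like, 104 and 65.9 in Mast cell or basophil-like, 27.5 and 24.9 in Fibroblast-like, 32.2 and 31.5 in Myofibroblast or smooth muscle-like and 43.9 and 63.6 in Pericyte-like nuclei. Srebf2 stood at 127 and 123 CPM in AT1-like, 102 and 125 in Macrophage-like, 171 and 132 in Monocyte-like, 79.3 and 96.0 in ILC2-like, 51.5 and 73.3 in Fibroblast-like, 26.8 and 66.1 in Myofibroblast or smooth muscle-like and 87.8 and 97.6 in Pericyte-like nuclei. So both regulators had UMIs in every type. Some of the genes highest in AT2-like nuclei did not. Me1 was at 0 UMIs in 5 of the 8 other types of the PBS library and reached 61.5 and 78.6 CPM in AT1-like nuclei, the second type. For Lss the second type was AT1-like in both libraries, with 8.49 CPM from 4 UMIs in PBS and 7 UMIs in OVA. Idi1 and Fdps were also second in AT1-like nuclei of both libraries, with 33.9 and 23.6 CPM and with 29.7 and 26.7 CPM. Cyp51, by comparison, stood at 181 CPM in PBS Mast cell or basophil-like and at 105 CPM in OVA Monocyte-like nuclei, with AT2-like levels of 65.3 and 85.4 CPM, and neither was beyond counting error above the next type (7 UMIs in the former).

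AT1-like nuclei, the flat alveolar cells of gas exchange, shared part of the pattern. There 7 of 32 genes were higher (12.4% of all genes) and 2 lower (18.7%), with a median log2 ratio of 0.52 beside -0.07 for all genes. Scd2 stood at 1226 CPM (PBS) and 1205 CPM (OVA) in AT1-like nuclei and was 4.99-fold higher than in the rest (adjusted p = 9.86e-13). Its AT1-like level was above the AT2-like level (1150 and 909 CPM) within counting error in PBS, log2 0.09 (-0.08 to 0.27), and beyond it in OVA, 0.41 (0.25 to 0.56). The phospholipid genes Chpt1, Agpat2 and Pcyt1a were 4.10-fold, 3.85-fold and 3.11-fold higher in AT1-like nuclei, and Chpt1 was above its AT2-like level in both libraries (log2 0.59, 0.04 to 1.16, and 0.76, 0.30 to 1.23). Fdft1, Me1 and Fdps were 2.80-fold, 2.78-fold and 2.77-fold higher. Scd1 was lower, with 142 and 40.9 CPM against 281 and 131 CPM in the rest, which include the AT2-like nuclei. Elovl6 was lower as in AT2-like nuclei, from 2 UMIs and 1 UMI. So both alveolar epithelial types had Elovl6 at 1.47 to 6.75 CPM, while the other 7 types had it at 17.3 to 129 CPM.

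Macrophage-like nuclei had few of the genes above the rest. In the Macrophage clusters 1023 kept nuclei passed this gate and 1144 passed none, so the values cover a part of those clusters. The ungated nuclei are in neither the type nor the rest. Of 32 genes 1 was higher (15% of all genes) and 8 lower (25.6%), with a median log2 ratio of -0.64 beside -0.10 for all genes. Elovl6 was the gene called higher, with 61.6 CPM (PBS) and 74.8 CPM (OVA) against 32.4 and 36.2 CPM, 2.13-fold (adjusted p = 3.49e-05). In the PBS library alone, where no edgeR test was possible, its log2 ratio was 0.93 (0.20 to 1.60), under 2-fold. Elovl6 was not called by DESeq2. Scd2 stood at 93.7 and 43.0 CPM, its lowest level of the 9 types in both libraries, and was 6.81-fold lower than the rest. Gpam was 12.6-fold lower, Scd1 7.51-fold, Chpt1 5.20-fold, Fasn 4.14-fold and Fads1 2.58-fold. Fads2 was represented by 1 UMI in each library. Me1 had no UMI in PBS Macrophage-like nuclei, which allows up to 8.03 CPM at 3 counts, and 3.44 CPM in OVA. Acaca and Acsl4 were not called, with 171 and 250.1 CPM and with 163 and 235 CPM.

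Fibroblast-like nuclei also had 1 of 32 genes higher (11.5% of all genes) and 8 lower (20.8%), with a median log2 ratio of -0.50 beside -0.01. Gpam was the gene called higher (2.09-fold, adjusted p = 0.00155), but the libraries differed. Its level was 188 CPM against 165 CPM in the rest in PBS, log2 0.19 (-0.09 to 0.45), within counting error. In OVA it was 238 against 91.5 CPM, log2 1.38 (1.19 to 1.57). The AT2-like nuclei stand in that rest with 623 and 461 CPM of Gpam, and Fibroblast-like nuclei were second to them in both libraries. The Fibroblast-like nuclei came mainly from 2 clusters, 1 with 247 PBS and 875 OVA and 1 with 646 PBS and 299 OVA nuclei, so a different mixture of fibroblasts cannot be told apart from a change within them. Scd1 was 8.20-fold lower, Elovl5 5.46-fold, Me1 3.65-fold, Acsl4 3.11-fold, Fdps 2.67-fold, Fasn 2.26-fold, Scd2 2.23-fold and Fdft1 2.13-fold. Acly and Acsl4 had their lowest level of the 9 types in Fibroblast-like nuclei in both libraries.

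ILC2-like nuclei were set apart by Elovl5 (chr9:77917364-77984519, plus strand), the elongase of polyunsaturated chains. It stood at 582 CPM (478 to 701) in PBS and 1421 CPM (1318 to 1529) in OVA ILC2-like nuclei, against 106 and 133 CPM in the rest, and was 9.37-fold higher (adjusted p = 3.40e-48). In both libraries its level was above that of every other type beyond counting error, the next being AT1-like nuclei in PBS (233 CPM) and the mast cell or basophil-like group in OVA (593 CPM). Of 32 genes 3 were higher in ILC2-like nuclei (10.8% of all genes) and 8 lower (20.7%). Sc5d, a late step of sterol synthesis, was 3.58-fold higher with 47.6 and 46.0 CPM. Mvk, the mevalonate kinase, was 3.39-fold higher but had only 1 UMI in PBS and 16 UMIs in OVA ILC2-like nuclei. Lower were Gpam (9.72-fold), Scd1 (6.22-fold), Fads2 (5.44-fold), Chpt1 (4.14-fold), Insig1 (3.56-fold) and Fasn (2.55-fold), and also Me1 and Fdft1, which had no UMI in PBS ILC2-like nuclei.

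In Monocyte-like nuclei, a gate that includes many nuclei of the neutrophil cluster, 0 of 32 genes were higher (9.2% of all genes) and 10 lower (16.7%) by edgeR, and 3 were higher at an unadjusted p under 0.05. In Myofibroblast or smooth muscle-like nuclei 0 were higher (8.02%) and 8 lower (13.9%) by edgeR, and 0 were higher at an unadjusted p under 0.05. Scd1, Scd2 and Gpam, genes of the desaturation and glycerolipid steps, were lower in both of these types. In Mast cell or basophil-like nuclei, the type with the fewest nuclei, 2 were higher (3.71%) and 2 lower (7.29%). Elovl6 was 2.99-fold and Elovl5 2.02-fold higher there. In Pericyte-like nuclei 2 were higher (6.03%) and 4 lower (9.5%). Fads2 was 5.42-fold higher (adjusted p = 2.93e-07), with 117 and 59.4 CPM against 15.3 and 16.1 CPM, and Elovl6 2.27-fold, with 43.9 and 110.3 CPM.

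UMIs of AT2 markers were also found in the other types, and low levels of the genes there are set beside them. The source of these UMIs was not tested. Of the Pericyte-like nuclei 9 lay in the AT2 cluster. Sftpc, the surfactant protein that defines AT2 cells, stood at 30590 CPM (PBS) and 24239 CPM (OVA) in AT2-like nuclei. In the other types it reached 1.13% to 3.77% of that level, apart from AT1-like nuclei (15.6% and 6.68%) and PBS Pericyte-like nuclei (12.0%, against 1.91% in OVA). Scd1 lay near the same shares, with 9.63% and 3.96% in AT1-like nuclei, 12.9% and 1.23% in Pericyte-like nuclei, 2.56% and 1.56% in Fibroblast-like nuclei and 3.27% and 1.33% in Macrophage-like nuclei. The median share of the 10 AT2 markers was 16.3% and 5.64%, 11.7% and 1.63%, 2.01% and 1.31%, and 2.53% and 1.05% in those types. Whether the level of Scd1 in these 4 types is expression of the types themselves was not tested, and it is not read as such. Acaca stood at 17.0% to 37.7% of its AT2-like level in Macrophage-like, ILC2-like and Fibroblast-like nuclei, and Gpam at 30.1% and 51.7% in Fibroblast-like nuclei, above the range of the 10 markers there. Fasn stood at 9.35% and 8.81% in Fibroblast-like nuclei, where the markers reached at most 3.53% and 3.38%.

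**Figure D4:**
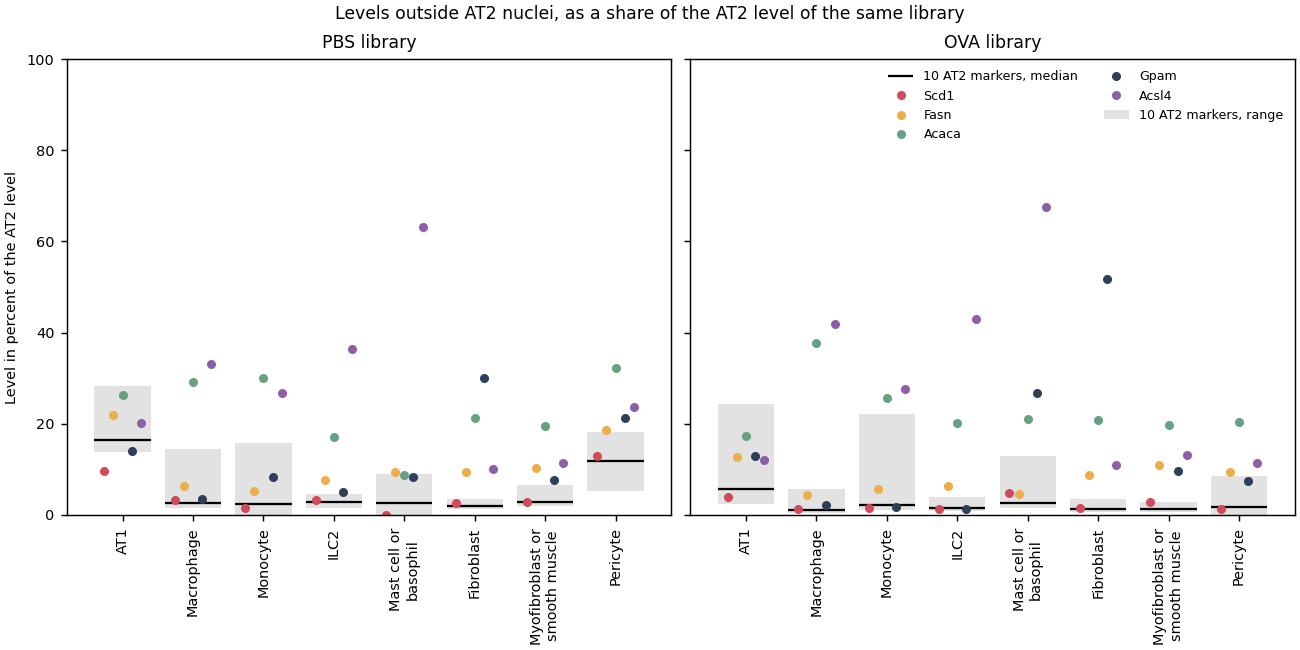
Level of 5 genes (coloured points) outside AT2 nuclei, in percent of the AT2 level of the same library (PBS left, OVA right), with the median (line) and range (grey) of 10 AT2 markers. Scd1 follows the markers, at 12.9% in PBS and 1.23% in OVA pericytes, while Acaca and Acsl4 lie above them in most types other than AT1.

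The other genes of both routes were taken from a fixed list. The shares of all genes called in each type, given above, are repeated beside the counts. Of 41 further fatty acid and phospholipid genes 31 were tested, of which 8 were called higher (10.3% of all genes) and 6 lower (17.4%) in AT2-like nuclei. Among the former were Lpcat1, which remodels phosphatidylcholine to its disaturated form (20.9-fold, 1211 and 1090 CPM), Lpin2 (6.48-fold), Hacd3 (3.89-fold), Acsl5 (3.32-fold) and Slc25a1, the citrate exporter of mitochondria (3.12-fold). Among the latter were Gpat3 (15.6-fold), Agpat4 (15.3-fold), Dgat1 (11.7-fold), Lpcat2 (7.79-fold) and Dgat2 (2.14-fold), the last a triglyceride synthase like Dgat1. The acyltransferases of glycerolipid synthesis differed by type. Gpat3, which acts at the same step as Gpam, was 9.91-fold higher in Macrophage-like nuclei, where Gpam was 12.6-fold lower, and Gpat4 was 3.37-fold higher in Fibroblast-like nuclei. Macrophage-like nuclei had 8 of the 31 higher (15%) and 8 lower (25.6%), with Hsd17b12 (4.08-fold), Acsl1 (3.75-fold), Dgat2 (3.67-fold) and Agpat4 (3.00-fold) next. ILC2-like nuclei had 3 higher, Dgat1 (10.8-fold), Lpcat2 (8.84-fold) and Hacd3 (2.47-fold), and 10 lower (10.8% and 20.7% of all genes). Fibroblast-like nuclei had 1 higher and 8 lower (11.5% and 20.8%).

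Of 25 further sterol genes 22 were tested. In AT2-like nuclei 7 were called higher (10.3% of all genes) and 2 lower (17.4%). Among the former were Npc2 (8.37-fold) and Npc1 (4.86-fold), which move cholesterol out of lysosomes, Soat1, which esterifies it (5.53-fold), the sterol carrier Stard4 (3.10-fold) and the demethylating oxidase Msmo1 (3.08-fold). The cholesterol exporter Abcg1 and its activator Nr1h3 were 12.5-fold and 3.66-fold lower. Macrophage-like nuclei had the opposite for Abcg1, which was 15.6-fold higher with 599.8 and 722 CPM, and Abca1 was 2.10-fold higher. ILC2-like nuclei had 3 higher, Lbr (3.97-fold), Ebp (3.68-fold) and Soat1 (2.20-fold), and 4 lower (10.8% and 20.7% of all genes). Fibroblast-like nuclei had 0 higher (11.5%) and 6 lower (20.8%) by edgeR, and 4 higher at an unadjusted p under 0.05.

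Accessibility of the promoters moved far less than RNA between AT2-like nuclei and the rest. Transposition counts were summed over peaks in a window from 1 kb before the first to 1 kb after the last annotated start of a gene. They were scaled to the counts in all peaks, each library with its own peaks. The median log2 ratio of the 33 genes was 0.08 (0.01 in PBS and 0.14 in OVA), beside -0.07 for all 18086 genes. In both libraries 11 genes had an interval above equality, against 17.9% of all genes, and 3 had one below it, against 18.1%. Above were Acacb (1.66 as the mean of both libraries), Me1 (1.00), Scd1 (0.98), Fdft1 (0.77), Fads2 (0.67), Acly (0.56), Lss (0.51), Sc5d (0.41), Chpt1 (0.26), Scap (0.25) and Hmgcs1 (0.22). Scap was lower in RNA and higher in accessibility, and Elovl6 was lower in both (-0.87). Fasn, 11.7-fold higher in RNA, had promoter ratios of 0.06 (-0.08 to 0.20) in PBS and 0.10 (-0.07 to 0.26) in OVA, and Acaca had -0.02 and 0.18. Gpam and Acsl4 were higher in RNA and lower in accessibility, with means of -0.91 and -0.52. The annotated starts of 9 genes spread over more than 1 kb, so their windows hold several starts and the sequence between them. The spread was 27766 bp for Gpam, 22317 bp for Acaca, 18984 bp for Acacb, 14654 bp for Fdft1, 8677 bp for Me1 and 4403 bp for Acly. What part of their ratios lies at a start was not tested.

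Promoter accessibility was also compared for genes called higher in another type, chosen after their RNA values were seen. In Fibroblast-like nuclei the Gpam window, which also holds the sequence between its starts, had log2 ratios of 1.24 (1.08 to 1.39) in PBS and 1.07 (0.94 to 1.21) in OVA. In Pericyte-like nuclei Fads2 had 1.20 (0.90 to 1.48) and 0.88 (0.58 to 1.16). Elovl6 in Macrophage-like nuclei had 0.67 (0.21 to 1.11) and 0.39 (0.03 to 0.73), and Elovl5 in ILC2-like nuclei had 0.29 (0.03 to 0.54) and 0.51 (0.32 to 0.70). These 4 lay above equality in both libraries. Scd2 in AT1-like nuclei did not, with 0.19 (-0.15 to 0.51) and -1.32 (-2.08 to -0.65). The mast cell or basophil-like group had Elovl6 at 0.79 (-0.14 to 1.59) and 0.54 (-0.19 to 1.19) and Elovl5 at -0.32 (-0.89 to 0.20) and -0.08 (-0.45 to 0.28), all within counting error. There 0 of the 33 promoters were above equality in both libraries, beside 4.34% of all genes.

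Between the OVA and PBS libraries the genes of AT2-like nuclei differed little. With 1 library per group no test was possible, and a gene was called where it differed at least 2-fold and the 95% counting interval left out equality. In AT2-like nuclei 20 of the 33 genes had at least 50 UMIs over both libraries, and none was called higher (3.42% of all genes) or lower (0.64%). Their median log2 ratio of OVA over PBS was 0.03, beside 0.12 for all genes, and the values ran from -0.52 to 0.40. Scd1, Gpam and Scd2 lay below equality beyond counting error, with -0.52 (-0.67 to -0.36), -0.43 (-0.67 to -0.20) and -0.34 (-0.51 to -0.17). Fasn did not, with -0.02 (-0.26 to 0.22). Sftpc, too, was lower in OVA AT2-like nuclei (-0.34, -0.37 to -0.30). With mitochondrial UMIs in the denominator, which took 36.6% of PBS and 23.0% of OVA UMIs in these nuclei, Scd1 stood at -0.23, Gpam at -0.15 and Scd2 at -0.06.

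In ILC2-like nuclei Elovl5 was called higher in the OVA library, by 2.44-fold (log2 1.29, 1.00 to 1.59), where 5.85% of all genes were called higher and 1.14% lower. It was the only call among the 5 genes with enough UMIs there, whose median was 0.42 beside 0.11 for all genes. Acaca, Acsl4, Srebf2 and Scd2 had 0.42, 0.42, 0.28 and 0.00, all within counting error. Elovl5 was also called higher in Mast cell or basophil-like nuclei, by 3.27-fold (log2 1.71, 0.59 to 3.07), from 7 UMIs in PBS and 72 in OVA. It was 1 of 3 genes with enough UMIs there, 0 were called lower, and 11.7% of all genes were called higher and 3.65% lower. Elovl5 was above equality in Macrophage-like nuclei too, with 0.87 (0.38 to 1.38). Within counting error and above 0 were Monocyte-like (0.51, -0.16 to 1.23), Pericyte-like (0.46, -0.35 to 1.31), Myofibroblast or smooth muscle-like (0.42, -0.33 to 1.21) and AT2-like nuclei (0.40, -0.10 to 0.93). Within it and below 0 were AT1-like (-0.02, -0.39 to 0.35) and Fibroblast-like nuclei (-0.31, -0.90 to 0.31).

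In Macrophage-like nuclei 11 genes had enough UMIs, none was called higher (3.3%) and Scd2 was called lower (2.93%), with 43.0 CPM in OVA and 93.7 CPM in PBS (log2 -1.12, -1.78 to -0.46). Sftpc was lower by a like amount in these nuclei (-1.11, -1.37 to -0.86), and the part of AT2 RNA in the Scd2 difference was not tested. Acaca (0.55, 0.15 to 0.96) and Acsl4 (0.52, 0.12 to 0.95) lay above equality and Acly (-0.78, -1.32 to -0.24) below it, each by less than 2-fold. The Macrophage-like and Monocyte-like gates cut through clusters that followed the library in part, 1 of which held 39 PBS and 412 OVA nuclei, so a different mixture of macrophage states cannot be told apart from a change within them.

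In Fibroblast-like nuclei 20 genes had enough UMIs and a median of 0.12 beside 0.03. Cyp51, the lanosterol demethylase, was called higher (1.03% of all genes), with 22.9 CPM in PBS and 49.4 CPM in OVA (log2 1.11, 0.41 to 1.88). Scd1 was called lower (1.15%), with 37.8 and 16.1 CPM (-1.23, -1.97 to -0.49), and Sftpc was lower in the same nuclei (-0.82, -0.99 to -0.65). Gpam (0.34, 0.09 to 0.61) and Srebf2 (0.51, 0.02 to 1.02) lay above equality by less than 2-fold. In AT1-like nuclei none of 16 genes was called higher (1.2%), and Scd1 (-1.80, -2.51 to -1.13) and Fdft1 (-1.36, -2.20 to -0.57) were called lower (1.71%). Sftpc was lower in AT1-like nuclei by -1.56 (-1.67 to -1.45), and its part in these values was not tested.

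In Myofibroblast or smooth muscle-like nuclei Srebf2, the regulator of the sterol route, was called higher in OVA, with 26.8 CPM (10 UMIs) in PBS and 66.1 CPM (42 UMIs) in OVA (2.47-fold, log2 1.30, 0.29 to 2.46). It was the only call among 8 genes, where 1.55% of all genes were called higher and 0.851% lower. In Monocyte-like nuclei none of 5 genes was called higher (4.59%) or lower (1.19%), and in Pericyte-like nuclei none of 3 (4.02% and 2.26%). Scd2 lay below equality in the latter (-0.60, -1.17 to -0.03). Sftpc was lower by more in these Pericyte-like nuclei (-2.99, -3.30 to -2.69), and the part of AT2 RNA in the Scd2 value was not tested.

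**Figure D5:**
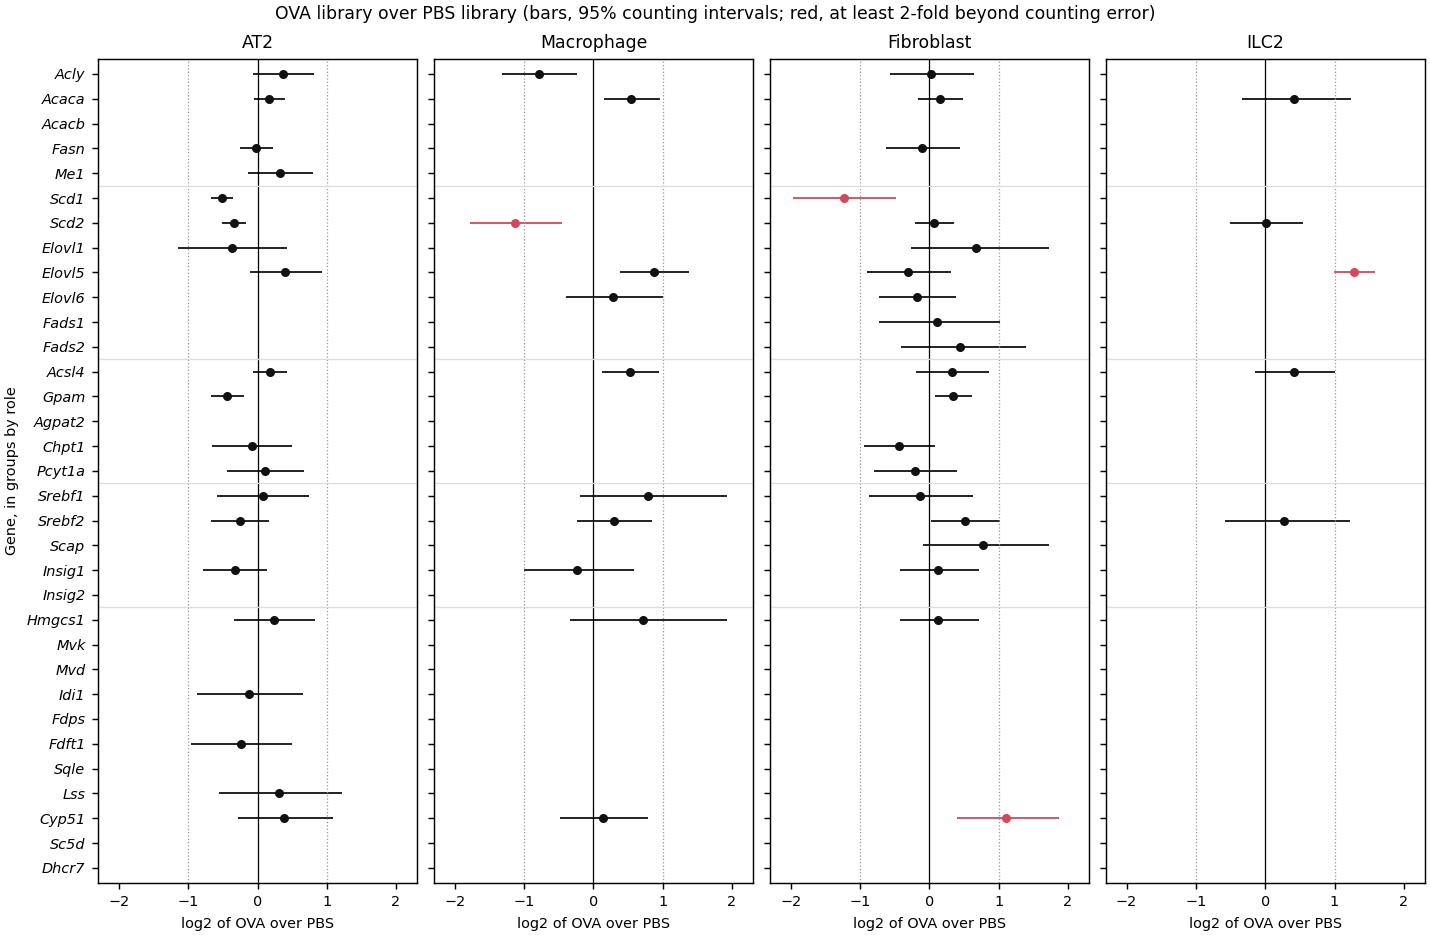
Log2 of the OVA library over the PBS library for genes with at least 50 UMIs, in 4 of the 9 cell types, with 95% counting intervals and red for at least 2-fold beyond counting error. Red are Scd2 in Macrophage (-1.12), Scd1 (-1.23) and Cyp51 (1.11) in Fibroblast and Elovl5 in ILC2 (1.29), and none in AT2.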

How the data were processed

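The deposited matrices hold UMI counts of genes and transposition counts of peaks, which the authors made per library with Cell Ranger ARC 2.0.1 on mm10, with no normalization. Barcodes with at least 200 genes, at most 60% mitochondrial UMIs, at most 25000 gene UMIs and no doublet call were kept. A nucleus was given a type where, pooled over its 15 nearest nuclei (itself included), at least 2 markers of the type were at least 2-fold over the library's mean with 3 UMIs each and the summed log2 excess was at least 1.2 times that of the next type. The gate and the upper limit were set after the types, but not the values of the 33 genes, had been seen. The genes and lists were chosen with earlier results of these data known. Counts were summed per type and library (scanpy 1.11.5, Python 3.11.15) and tested by edgeR 4.0.16 (R 4.3.3) with TMM scaling, at least 50 UMIs, 1 residual degree of freedom, the spread shared across genes and Benjamini-Hochberg adjustment, and edgeR was tested on simulated data. DESeq2 1.42.0, other gates, filters, minimums and scalings were alternatives. OVA over PBS was given with exact binomial intervals (scipy 1.17.1) and no test. Levels of different genes were not compared, since nothing was scaled to length. Named were genes called in a comparison, the 6 with the most UMIs, Srebf1 and Srebf2, and of the other pathway genes at most 5 called each way by fold. Levels in every type are written out for the 6 and both Srebf genes and plotted for all. Named types in the plots stand for the same nuclei as the names ending in -like.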

Additional observations from a re-analysis of the deposited data

Results flagged for a closer look

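Of 52 differences between cell types in the ratio of OVA over PBS, 4 had an interval, widened to 99.9% confidence for the number compared, that left out equality. These intervals cover counting error between 2 libraries, and no test over samples was possible. For Elovl5 the log2 ratio in Fibroblast-like nuclei minus that in ILC2-like nuclei was -1.60 (-2.68 to -0.51), its level being 42.4 and 34.2 CPM in PBS and OVA Fibroblast-like nuclei against 582 and 1421 CPM in ILC2-like nuclei. For Scd2 the ratio in Macrophage-like minus that in Fibroblast-like nuclei was -1.20 (-2.34 to -0.05), and the part of AT2 RNA in it was not tested. For Acly the ratio in AT2-like minus that in Macrophage-like nuclei was 1.15 (0.03 to 2.27), with 153 and 197 CPM against 126 and 73.1 CPM. For Gpam the ratio in AT2-like minus that in Fibroblast-like nuclei was -0.78 (-1.36 to -0.20), with a fall from 623 to 461 CPM beside 188 and 238 CPM.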

How the results depend on the processing

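Of 52 recounts of the genes higher in a type, 37 stayed within 1.5 times the reported count. The counts from 1 library alone do not come from the edgeR test, since 1 library leaves no spread to test. They are not the same call as the others. AT2-like nuclei (23 genes) had 16 to 23, with 18 by DESeq2, 18 from the PBS library alone and 20 from the OVA library alone. Macrophage-like nuclei (1) had 0 by DESeq2, with no minimum of UMIs, with doublet calls kept and with at most 20% mitochondrial UMIs, 2 by named clusters, and 0 to 1 in either library alone. Fibroblast-like nuclei (1) had 0 with no minimum, no library block, a gate of 3 markers or a joint filter on UMIs and transposition counts, 3 against the mean of the other types, 2 by named clusters, and 0 to 1 in either library alone. ILC2-like nuclei (3) had 1 by DESeq2, which was Elovl5, 0 with at most 20% mitochondrial UMIs, and 3 to 4 in either library alone. That filter left 11 PBS and 78 OVA ILC2-like nuclei, moved the median ratio of OVA over PBS there from 0.42 to 3.26 (1 gene left) and the promoter median of AT2-like nuclei from 0.08 to -0.081, and left no Macrophage-like value. With an upper UMI limit absent, an alternative chosen after seeing the data, the counts above stayed within 1.5 times. Medians near 0 changed sign: that of OVA over PBS ran from -0.18 to 0.31 in AT2-like nuclei and was -0.0022 in Fibroblast-like nuclei by named clusters. With mitochondrial UMIs included, Srebf2 in AT2-like and Srebf1 in Fibroblast-like nuclei went from -0.25 to 0.027 and from -0.14 to 0.074, within their intervals. No paired analysis was possible because OVA and PBS are each represented by 1 library. Depth limits the single genes: the median half-width of an interval in AT2-like nuclei was 0.49 on the log2 scale, and genes under 50 UMIs, such as Dhcr7 within a type, could not be placed between OVA and PBS.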

Other observations

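The other genes of both routes held further differences. In AT1-like nuclei Fads3, a desaturase-like gene, was 8.73-fold higher than in the rest by edgeR, the elongase Elovl7 6.51-fold, the acyltransferase Agpat3 3.54-fold, and the sterol carrier Stard4 3.35-fold. In Pericyte-like nuclei Nr1h3, a receptor for oxysterols, was 6.55-fold higher. Dgat1 stood at 788 CPM in PBS and 1829 CPM in OVA ILC2-like nuclei against 71.3 and 232 CPM in the rest, and Lpcat2 at 159 and 142 CPM against 16.5 and 22.3 CPM. The summed level of the 11 mevalonate and sterol genes was 128 CPM (106 to 154) in PBS and 185 CPM (167 to 204) in OVA Fibroblast-like nuclei, against 281 and 245 CPM in the rest.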
